A study of Rattus norvegicus with 9 samples.

Results

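Acute phase and secreted defence proteins are made in large amounts when tissue is injured or infected. The liver is their best known source, and many epithelia and macrophages also make them. Some of them bind bacterial lipopolysaccharide (LPS) and pass it to receptors, others inhibit proteases, and others hold iron, copper or haemoglobin away from microbes. Interleukin-6 family cytokines acting through STAT3 and C/EBP factors, and interleukin-1 and TNF acting through NF-kB, are the classical inducers of their genes. The genes described here are Lbp, Cd14, A2m, Serpina3n, Timp1, Cp, Hp and Lcn2. They were chosen by their measured levels in these same libraries, so their values are a description and carry no p-value. Of these 8 genes, 7 have an entry with that symbol among the 32883 genes of the count table, and all 7 passed the filter on low counts. Serpina3n was not analysed here.

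The study exposed male Long-Evans rats to 3,3'-iminodipropionitrile (IDPN), a nitrile that damages the sensory hair cells (HCs) of the vestibular organs, to compare an earlier with a later stage of chronic toxicity. Rats of the IDPN-3wk and IDPN-7wk groups drank water with 20 mM IDPN for 3 or 7 weeks. Control rats drank plain water, and this single group held animals killed at either time, so the time of exposure and the age at collection cannot be told apart between the IDPN groups. Each library came from the cristae and utricles of 1 rat, pooled, with 3 rats per group and the same batch named for every library. Libraries were made by SMARTseq2, which copies polyadenylated RNA into cDNA and amplifies it by PCR. Replicate numbers only name the rats and pair none of them. The sample titles begin with a code whose meaning is not stated. It is shared by all Control rats, by replicate 1 of both IDPN groups, and by the other rats within each IDPN group. Its part in the results was not tested.

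The Control libraries held 38023198, 32251682 and 38044824 counts for replicates 1, 2 and 3. The IDPN-3wk libraries held 37640956, 31100118 and 32696268 counts, and the IDPN-7wk libraries 46007687, 46018385 and 37275081. Levels are given as CPM, counts scaled to a common library total after TMM normalisation, as mean ± SD of 3 rats, and a floor of 3 counts lay between 0.0611 and 0.101 CPM, for counting error only. CPM are not divided by gene length, so levels of different genes were not compared. At equal depth, 15469 genes were detected in Control replicate 3, and 15501 and 15387 genes in IDPN-3wk replicates 1 and 2, against 16829 to 17296 genes in the other 6 libraries. The IDPN-7wk rats all fall in the set with more detected genes. Differences of mean log2(CPM + 2) within a set are therefore given beside the fold changes, where a set often holds 1 library of a group. Fold changes and their standard errors (SE) come from edgeR's quasi-likelihood fit of all 9 libraries and 15517 genes. A gene was called where the adjusted p was under 0.05 and the fold change exceeded 1.5.

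The tissue label was checked against markers of vestibular cells. Of 10 HC markers 9 had an entry, all 9 were tested, and none was at the floor in every library. Their summed level was 6544 ± 338 CPM in the control group, 3834 ± 472 CPM after 3 weeks of IDPN and 2204 ± 107 CPM after 7 weeks, most of it Spp1, which encodes osteopontin. Of the 9 HC markers, 4 were called lower at 3 weeks and 7 at 7 weeks. The 10 supporting cell markers summed to 13340 ± 324, 8692 ± 1114 and 6624 ± 1166 CPM, led by Otog, a gene of the gelatinous membranes, and at 7 weeks 4 of them were called lower and 1 higher. In pooled tissue, fewer cells of a type and less RNA per cell cannot be told apart from these counts alone. From HC counts in other rats after 4 weeks of IDPN, the study calculated a loss of at most 4%. It held the 3-week rats to that limit and considered a significant HC loss likely at 7 weeks. The part of these marker shifts in the results below was not tested.

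Markers of hepatocytes and neutrophils had few counts. Of 8 hepatocyte markers, 4 (Alb, Apoa2, Fgb and Fgg) did not exceed the floor in any library, and Alb was at 0 in all of them. The list summed to 3.50 to 12.3 CPM, led by Serpina1 in the mean over all libraries. Of 10 neutrophil markers, Elane and Ltf were at 0 in every library. The list, led over all libraries by Csf3r, summed to 1.41 ± 0.868 CPM in control, 4.45 ± 3.97 CPM in 3-week and 4.55 ± 0.488 CPM in 7-week rats. In the 3-week rats Mpo was highest, at 2.16 ± 3.74 CPM against 0.376 ± 0.328 CPM for Csf3r, and IDPN-3wk replicate 1 had the largest sum (8.88 CPM). The 7-week sums lay above those of control and the 3-week sums overlapped them. Of the 4 neutrophil markers tested, Csf3r and Cxcr2, which encode receptors, had all 7-week rats above control, while S100a9 and Ngp, which encode granule or cytosolic proteins, overlapped it, and so did the untested S100a8, Camp, Mpo and Mmp8. These genes were named after their values were seen. Erythrocyte markers, nearly all Hbb, a haemoglobin chain, summed to 77.1 ± 6.46 CPM in control, 116 ± 12.4 CPM in 3-week and 71.9 ± 17.7 CPM in 7-week rats, with every 3-week rat above the others. EdgeR called none of the 3 tested at 3 weeks, where 1 had an unadjusted p under 0.05 and DESeq2 called 1, higher. The part of these cells in the results below was not tested. The summed level of the 10 macrophage and monocyte markers was 108, 64.8 and 110 CPM in the Control rats, 39.3, 113 and 41.0 CPM in the IDPN-3wk rats and 241, 182 and 183 CPM in the IDPN-7wk rats. The 7-week rats thus lay above all others, while the 3-week and control rats overlapped. None of these 10 markers was called by edgeR at 7 weeks, where 5 had an unadjusted p under 0.05 and DESeq2 called 3. All 10 had a log2 fold change above 0, with a median of 1.26 against 0.01 over all genes tested. The marker with the most counts was Csf1r, the receptor for macrophage colony stimulating factor, at 43.7 ± 18.2, 24.1 ± 19.1 and 80.5 ± 18.1 CPM in control, 3-week and 7-week rats, and none of the list was at 0 throughout. Lymphocyte markers summed to 7.71, 7.92 and 8.27 CPM in the Control rats, 1.20, 5.99 and 4.58 CPM in the IDPN-3wk rats and 24.0, 10.8 and 10.9 CPM in the IDPN-7wk rats, so that the 3-week rats lay below and the 7-week rats above control. Of these 8 markers Cd4, which rat macrophages also express, took the most counts and Ms4a1 was at 0 in every library.

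**Figure D1:**
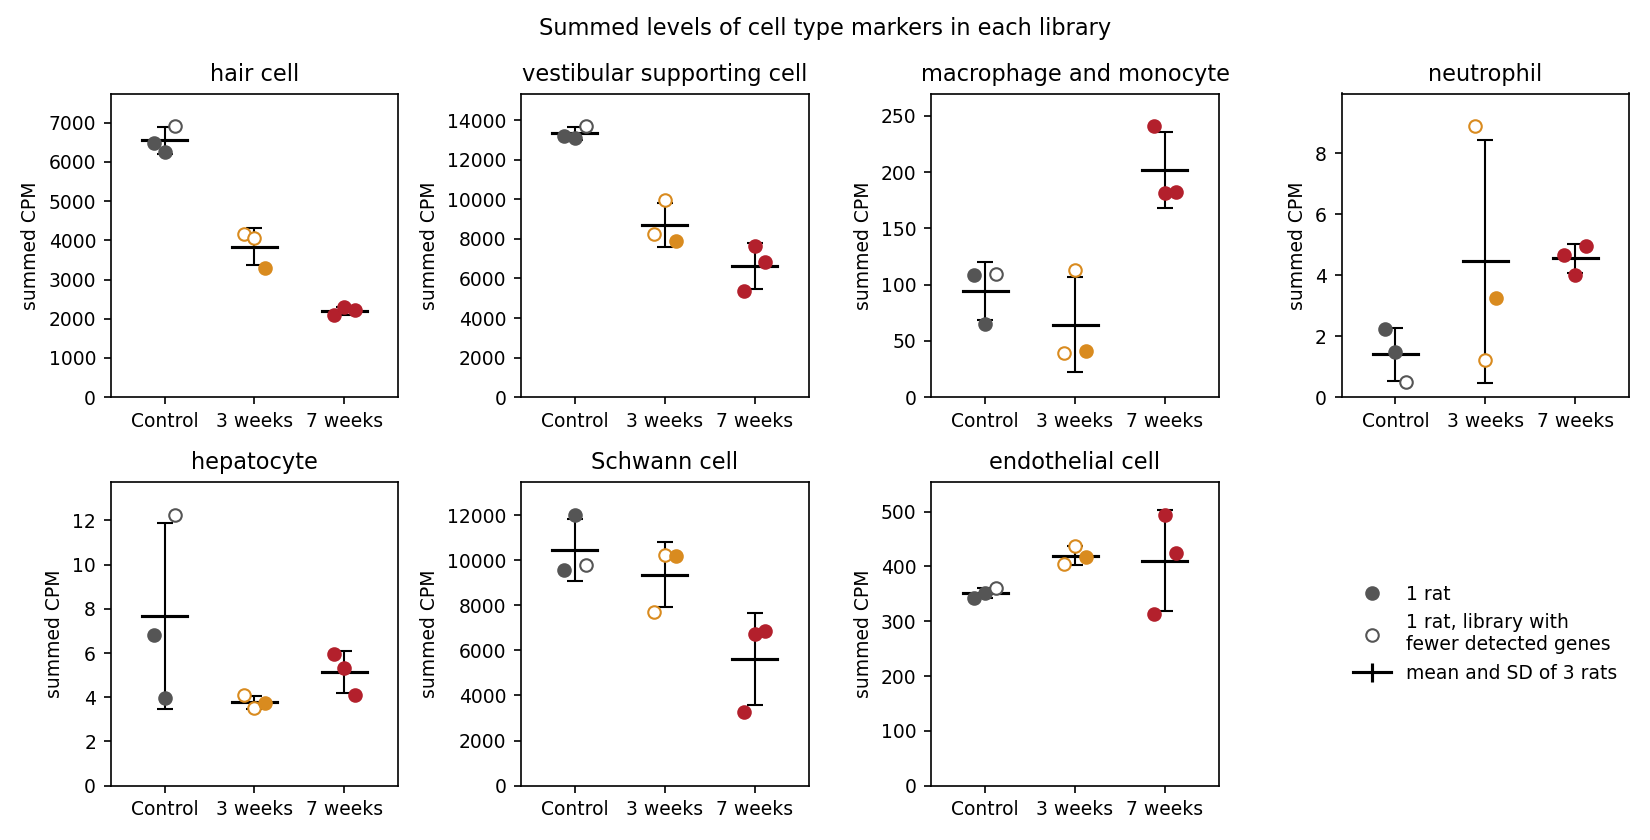
Summed CPM of cell type markers in each library of the Control, IDPN-3wk (3 weeks) and IDPN-7wk (7 weeks) groups, with 1 point per rat, open points for the libraries with fewer detected genes, and the mean and SD of 3 rats. The mean of the HC markers is 6544 CPM in Control and 2204 CPM in IDPN-7wk rats, and the macrophage and monocyte sum is highest in the 7-week rats.

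Across the set, 1 of the 7 genes, Lbp, was called at 3 weeks, when 1.65% of all genes tested were called (0.438% higher and 1.21% lower). At 7 weeks 5 of 7 were called, all higher (Lbp, Cd14, A2m, Cp and Lcn2), against 5.13% of all genes (2.00% higher and 3.13% lower). Between 7 and 3 weeks 1 of 7 was called, Lcn2, which was higher at 7 weeks, against 0.483% of all genes (0.348% higher and 0.135% lower). These contrasts are the ones that chose the genes. Groups that did not overlap were seen for 4 genes above control at 3 weeks (8.78% of all genes) and for 1 gene below it (10.9%), for 5 genes above control at 7 weeks (17.2%), and for 4 genes above the 3-week rats at 7 weeks (12.1%).

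Among the LPS recognition genes, Lbp was called at both times and Cd14 at 7 weeks. Lbp (ENSRNOG00000014532) encodes LPS-binding protein, a secreted carrier that hands LPS to CD14. It stood at 140, 147 and 146 CPM in the Control rats, at 301, 325 and 266 CPM in the IDPN-3wk rats and at 288, 296 and 303 CPM in the IDPN-7wk rats. Every exposed rat was far above every control rat, the controls lay close together, and the ranges of the IDPN groups overlapped. Its log2 fold change was 1.04 (SE 0.09) at 3 weeks and 1.03 (SE 0.09) at 7 weeks, and -0.01 (SE 0.09) between the 2 times. The 3-week difference was 1.09 among the libraries with fewer detected genes, and among the others it was 0.89 at 3 weeks, 1.03 at 7 weeks and 0.15 between the times, where the sign of the fold change also differed under 4 alternatives. Lbp was called against control under all 17 alternatives at both times. The levels of Lbp at 3 and 7 weeks thus differed by less than the spread between the 3-week rats.

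Cd14 (ENSRNOG00000017819) encodes the membrane-anchored and shed co-receptor that presents LPS to TLR4. It stood at 19.3, 11.8 and 12.4 CPM in the Control rats, 19.3, 23.5 and 24.2 CPM in the IDPN-3wk rats and 29.7, 30.5 and 27.0 CPM in the IDPN-7wk rats. The groups lay in the order control, 3 weeks, 7 weeks, but the highest control rat (714 counts) and the lowest 3-week rat (710 counts) were almost level. Against control its log2 fold change was 0.62 (SE 0.21) at 3 weeks and 1.00 (SE 0.21) at 7 weeks. Within sets the difference was 0.70 and 0.61 at 3 weeks, 0.86 at 7 weeks and 0.25 between the times. Cd14 was not called at 3 weeks, nor between the times (0.38, SE 0.21), under any of the 17 alternatives. The 7-week call was lost when Control replicate 2 or 3, or any of the IDPN-7wk rats, was left out, with log2 fold changes from 0.88 to 1.26 over all alternatives. Macrophages are a main source of Cd14, and their markers were highest in the same 7-week rats. Their part in its level was not tested.

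Among the protease inhibitors, A2m was called at 7 weeks and Timp1 overlapped control at both times. A2m (ENSRNOG00000028896) encodes alpha-2-macroglobulin, which traps proteases of every class and is a major acute phase protein of the rat. It stood at 25.2, 32.5 and 44.5 CPM in the Control rats, 47.3, 59.2 and 59.9 CPM in the IDPN-3wk rats and 150, 55.9 and 82.4 CPM in the IDPN-7wk rats. All exposed rats were above the controls, with 1 rat of the 7-week group far above the rest and another within the 3-week range. The log2 fold change was 0.70 (SE 0.33) at 3 weeks, where the difference was 0.24 among the libraries with fewer detected genes and 1.01 among the others. At 7 weeks the level was 2.82-fold that of control, the within-set difference was 1.56 (0.55 between the times), and the log2 fold change without IDPN-7wk replicate 1 was 1.02. The call was lost without that rat, without IDPN-7wk replicate 3, without Control replicate 1 or 2, and without the libraries with fewer detected genes.

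Timp1 (ENSRNOG00000010208) encodes a secreted inhibitor of matrix metalloproteinases. Its levels were 116, 98.4 and 138 CPM in the Control rats, 103, 122 and 115 CPM in the IDPN-3wk rats and 127, 188 and 161 CPM in the IDPN-7wk rats. The 7-week rats lay above the 3-week rats but overlapped the controls. Timp1 had a log2 fold change of -0.06 (SE 0.16) at 3 weeks, where its sign changed under 3 alternatives, 0.43 (SE 0.16) at 7 weeks and 0.49 (SE 0.16) between the times. Within sets the 3-week difference was -0.30 among the libraries with fewer detected genes and 0.10 among the others, of opposite sign, and it was 0.55 at 7 weeks and 0.45 between the times.

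Among the genes that handle metals and haem, Cp and Lcn2 were called higher at 7 weeks and neither was called at 3 weeks, and Hp had few counts. For 4 of the 7 genes (Cd14, Timp1, Cp and Lcn2) the RefSeq promoter table held the region before the start site, and Lbp, A2m and Hp had no entry. Promoters of Lcn2 and Cp are shown because both genes were higher at 7 weeks and belong to the same role, as the 250 bases before the start site, 5' to 3' on the gene's strand, in build GRCr8. Capitals mark matches, on either strand, to 4 motifs of the classical inducers, which were TTCNNNGAA (STAT), TTGCNNAA (C/EBP), TGANTCA (AP-1) and the NF-kB consensus. The Lcn2 region is chr3:36081781-36082030 on the minus strand and the Cp region is chr2:104368420-104368669 on the plus strand.
Lcn2: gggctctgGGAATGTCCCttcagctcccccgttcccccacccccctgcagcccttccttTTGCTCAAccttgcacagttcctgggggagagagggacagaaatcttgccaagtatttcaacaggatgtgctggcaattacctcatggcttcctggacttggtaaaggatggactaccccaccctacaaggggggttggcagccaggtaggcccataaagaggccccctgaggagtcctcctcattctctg
Cp: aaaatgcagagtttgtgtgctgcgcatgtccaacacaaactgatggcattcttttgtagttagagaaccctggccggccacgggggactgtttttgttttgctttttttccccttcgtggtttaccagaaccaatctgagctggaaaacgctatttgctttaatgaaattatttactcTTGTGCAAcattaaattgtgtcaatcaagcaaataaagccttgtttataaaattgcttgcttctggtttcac
Each held 1 C/EBP match. In Lcn2 it is TTGCTCAA, from 191 to 184 bases before the start, and in Cp it is TTGTGCAA, a match on the opposite strand from 72 to 65 bases before the start. The Lcn2 region also held an NF-kB match on the opposite strand, GGAATGTCCC as printed, from 242 to 233 bases before the start, and no matches overlapped. None of the 4 motifs was found in the regions of Cd14 and Timp1, and neither STAT nor AP-1 letters in those of Lcn2 and Cp. Of 33465 rat promoter regions of the same length, 9.22% held a C/EBP match, 7.67% STAT, 6.34% AP-1 and 6.33% NF-kB. The matches describe the letters only.

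Cp (ENSRNOG00000011913) encodes ceruloplasmin, the copper-carrying ferroxidase of plasma. It stood at 281, 211 and 263 CPM in the Control rats, 340, 422 and 375 CPM in the IDPN-3wk rats and 750, 541 and 684 CPM in the IDPN-7wk rats. The groups did not overlap at any time, and the lowest 7-week rat was above the highest 3-week rat. Cp had log2 fold changes of 0.59 (SE 0.15) at 3 weeks, 1.39 (SE 0.15) at 7 weeks and 0.80 (SE 0.15) between the times. Within sets the difference was 0.52 and 0.62 at 3 weeks, 1.41 at 7 weeks and 0.80 between the times. Cp was called at 7 weeks under all 17 alternatives and at 3 weeks under 1, DESeq2.

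Lcn2 (ENSRNOG00000013973) encodes lipocalin 2, a secreted protein that binds bacterial siderophores and so withholds iron. It stood at 1110, 875 and 1096 CPM in the Control rats, 847, 726 and 641 CPM in the IDPN-3wk rats and 1989, 1319 and 1681 CPM in the IDPN-7wk rats. Every 3-week rat was below every control rat and every 7-week rat above, so that the levels of the exposed rats lay on opposite sides of control. Its share of all counts ran from 0.0637% in IDPN-3wk replicate 3 to 0.212% in IDPN-7wk replicate 1. Lcn2 had log2 fold changes of -0.48 (SE 0.16) at 3 weeks, 0.70 (SE 0.16) at 7 weeks and 1.17 (SE 0.16) between the times. Within sets the difference was -0.48 and -0.62 at 3 weeks, 0.73 at 7 weeks and 1.35 between the times. Lcn2 was not called at 3 weeks in the fit of all libraries or under any of the 17 alternatives, DESeq2 included. The call at 7 weeks was lost without any 1 of the Control rats or of IDPN-7wk replicates 1 and 3. The call between the times was lost without IDPN-3wk replicate 2, IDPN-7wk replicate 3 or the libraries with fewer detected genes.

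Hp (ENSRNOG00000014964) encodes haptoglobin, which binds free haemoglobin. Its libraries held 13 to 140 counts, at 1.11, 2.04 and 2.03 CPM in the Control rats, 1.91, 0.438 and 1.38 CPM in the IDPN-3wk rats and 2.85, 2.14 and 1.52 CPM in the IDPN-7wk rats. The groups overlapped in each comparison, and no difference was called. The log2 fold change was -0.47 (SE 0.67) at 3 weeks, 0.33 (SE 0.67) at 7 weeks and 0.80 (SE 0.67) between the times. Within sets the difference was -0.38 and -0.07 at 3 weeks, 0.22 at 7 weeks and 0.29 between the times.

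**Figure D2:**
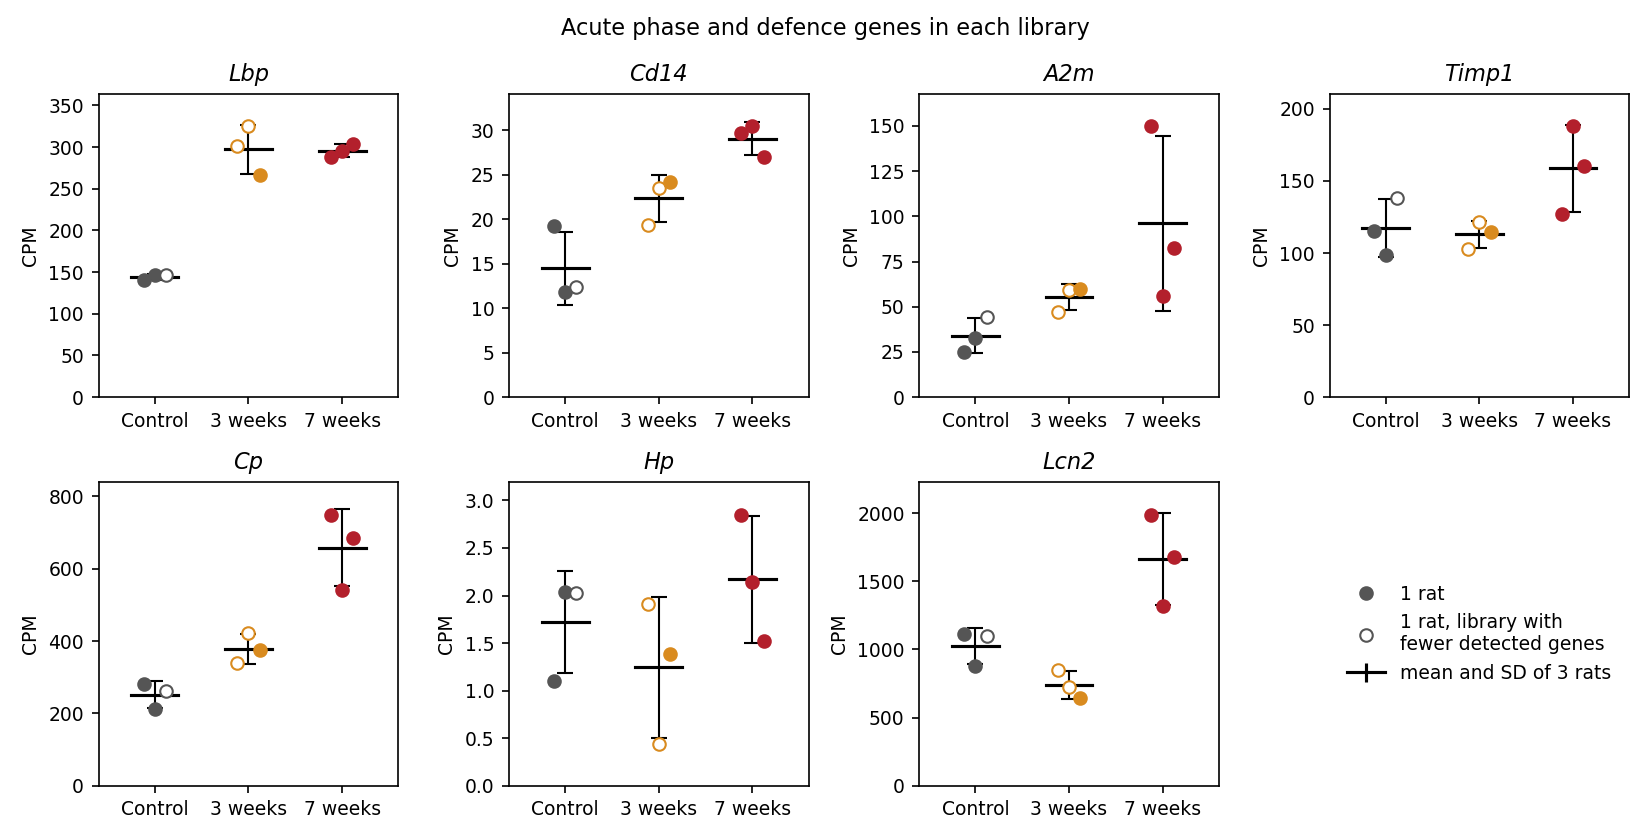
CPM of the 7 genes in each library, on linear axes from 0, with 1 point per rat of the Control, IDPN-3wk (3 weeks) and IDPN-7wk (7 weeks) groups, open points for the libraries with fewer detected genes, and the mean and SD of 3 rats. Lbp is as high at 3 weeks (298 ± 29.6 CPM) as at 7 weeks (296 ± 7.80 CPM), and Lcn2 is at 738 ± 104 CPM in the 3-week rats, a difference from control that was not called, and at 1663 ± 335 CPM in the 7-week rats.

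Between the 2 times, edgeR's fit of all libraries called Lcn2 alone of the 7 genes, and Cp was called under 5 of the 17 alternatives. Whether the genes differ from each other in their course was not tested. The 2 comparisons with control share the control rats.

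**Figure D3:**
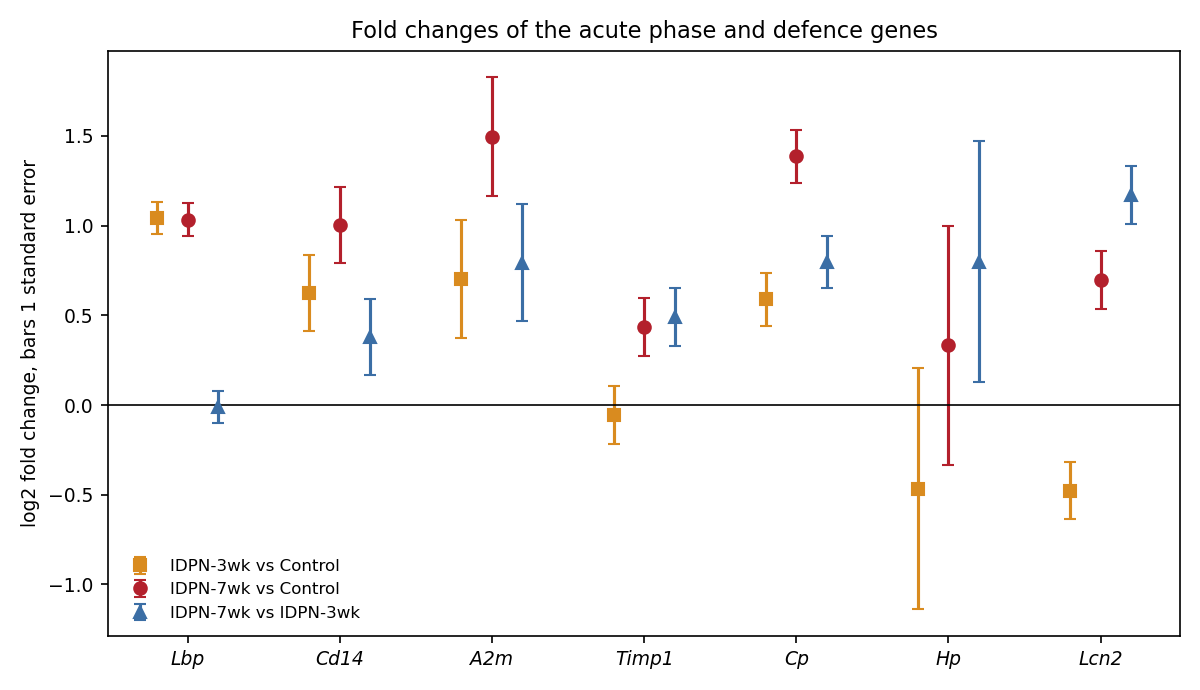
Log2 fold changes of the 7 genes, with bars of 1 SE from edgeR's fit of 9 libraries, for IDPN-3wk against Control (squares), IDPN-7wk against Control (circles) and IDPN-7wk against IDPN-3wk (triangles). The triangle of Lbp lies at -0.01 and that of Lcn2 at 1.17, while the bars of Hp, up to 0.67 in length, are the widest of those drawn.

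The rats of a group also differed in several of these genes at once. IDPN-7wk replicate 1 had the highest A2m, Cp, Lcn2 and Hp of its group and the lowest Lbp and Timp1, and its cell type markers also stood apart. Among the 7-week rats it had the highest sums of macrophage (241 CPM) and lymphocyte markers (24.0 CPM), and also of hepatocyte and melanocyte markers. Its sum was the lowest for Schwann cell markers (3259 CPM, against 6738 and 6841 CPM in replicates 2 and 3), supporting cell markers (5361 CPM, against 7661 and 6851 CPM), dark cell markers (654 CPM, against 997 and 789 CPM) and endothelial markers (313 CPM, against 494 and 425 CPM), and also for HC and fibroblast markers. Their part in the levels of this rat was not tested. Over the 9 libraries, Pearson's r of log2(CPM + 2) was 0.90 between Cd14 and Cp, 0.88 between A2m and Cp and 0.81 between Lbp and Cd14. These r values share the group means. After each group's mean was removed they were 0.46, 0.57 and -0.34, and the highest was 0.66 between Cp and Lcn2. They describe 9 libraries that also share depth and preparation.

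Genes of like pattern were searched among 10569 genes with a symbol and a mean of at least 5 CPM, by r of log2(CPM + 2) over the 9 libraries. Nearest to Lcn2 were Adgre1, which encodes the macrophage surface protein F4/80 (r 0.97), and Trim21, an intracellular antibody receptor (r 0.95). Adgre1 stood at 6.67 ± 0.816, 3.34 ± 1.97 and 15.0 ± 5.06 CPM in control, 3-week and 7-week rats. It was picked by its likeness to Lcn2, so its low 3-week mean follows from that choice. At 3 weeks 4 of the 10 macrophage and monocyte markers had a log2 fold change above 0. Only 1 had every 3-week rat below control (10.9% of all genes), and the summed markers overlapped control. The summed lymphocyte markers, like Lcn2, were below control in every 3-week rat and above it in every 7-week rat. The part of macrophages and lymphocytes in the level of Lcn2 was not tested. Nearest to Cp were Tmem176a (r 0.98) and Tmem176b (r 0.98), paired genes for membrane proteins of immune cells and epithelia, with Tmem176a at 123, 187 and 361 CPM as group means. Nearest to Lbp were Clic3, of the chloride intracellular channel family (r 0.98), and Gstt2, a glutathione transferase (r 0.98). The other pairs were Alas1, the first enzyme of haem synthesis, and Sdf4 for Cd14 (both r 0.97), Prr13 (r 0.99) and Arnt2 (r 0.98) for A2m, Gpx6 and Tyro3 for Timp1 (both r 0.93), and Phldb3 (r 0.94) and Mrpl27 (r 0.93) for Hp. Each is the highest of many r values, and nothing about shared control follows.

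The surroundings of these genes were described with lists of other genes with 184 entries in the table, of which 139 were tested. At 3 weeks 2 of 139 were called, both higher, or 1.44% against 1.65% of all genes (23 at an unadjusted p under 0.05). DESeq2 called 9 at 3 weeks, of which 4 were higher and the others lower. At 7 weeks edgeR called 18 higher and 6 lower, or 17.3% against 5.13%, and DESeq2 called 35, of which 25 were higher. The median log2 fold change of the lists was 0.17 at 3 weeks and 0.21 at 7 weeks, against -0.00047 and 0.01 over all genes tested. Both genes called at 3 weeks came from the list of plasma acute phase proteins. Serping1, the inhibitor of the first complement component, stood at 215 ± 17.4, 358 ± 60.9 and 490 ± 43.0 CPM in control, 3-week and 7-week rats, with log2 fold changes of 0.74 (SE 0.13) and 1.19 (SE 0.13). F3, tissue factor, a membrane protein that starts coagulation, was at 65.2 ± 11.4, 116 ± 14.3 and 149 ± 11.8 CPM, with 0.84 (SE 0.15) and 1.19 (SE 0.15). By edgeR's quasi-likelihood test with Benjamini-Hochberg adjustment, the adjusted p at 3 weeks was 0.0203 for Serping1 and 0.0207 for F3, and over the alternatives it ran from 1.48e-05 to 0.0879 and from 1.36e-05 to 0.0797. The 3-week call of Serping1 was lost without any 1 of the Control rats, without the libraries with fewer detected genes and with only the 2 groups in the fit, and that of F3 without Control replicate 1 or 2 or IDPN-3wk replicate 2 and with only the 2 groups. The count of 2 was 0 without Control replicate 1, 1 without Control replicate 2 or 3 or IDPN-3wk replicate 2, and 4 without IDPN-3wk replicate 1 or 3. Without Control replicate 2 the gene called was thus neither Serping1 nor F3.

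At 7 weeks Serping1 and F3 were joined by Cfb, complement factor B. Thus 3 of the 15 plasma acute phase entries tested, of which 2 are Cfb, were called, all higher. This is 20% against 5.13% of all genes, with a list median of 0.61. The Cfb entry ENSRNOG00000051158, which took more counts than any other gene of its list, stood at 1087, 961 and 1142 CPM in the Control rats, 1125, 984 and 1075 CPM in the IDPN-3wk rats and 2348, 2189 and 2086 CPM in the IDPN-7wk rats. The 3-week and control rats overlapped and all 7-week rats were far above both. Its log2 fold change was 1.05 (SE 0.09, adjusted p 0.000191 by edgeR) against control, with an adjusted p from 9.85e-24 to 0.00203 over the alternatives, and 1.06 (SE 0.09, adjusted p 0.000696) against IDPN-3wk. A second Cfb entry, ENSRNOG00000000419, ran from 11.2 to 24.3 CPM over the 9 libraries, and the split of reads between 2 entries of 1 symbol is uncertain.

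Of the 12 secreted mucosal defence genes tested, 4 were called higher at 7 weeks and none lower, or 33.3% against 5.13% of all genes, with a list median of 0.89. Lgals3bp, a secreted glycoprotein that binds galectin 3, stood at 32.1, 45.4 and 44.2 CPM in the Control rats, 67.3, 36.2 and 40.5 CPM in the IDPN-3wk rats and 378, 328 and 288 CPM in the IDPN-7wk rats. The 7-week rats were several-fold above all other rats, which overlapped. The log2 fold change was 3.03 (SE 0.24, adjusted p 0.000143 by edgeR) against control and 2.79 (SE 0.24, adjusted p 0.000696) against IDPN-3wk. Lgals3, galectin 3 itself, had a log2 fold change of 2.27 (SE 0.44) from 3.40 ± 1.93 CPM in control to 16.4 ± 2.74 CPM, and Clu, the extracellular chaperone clusterin, which took the most counts of the list, 0.70 (SE 0.13) from 2647 ± 325 to 4306 ± 412 CPM. Sftpd, a collectin that binds microbial sugars, had 0, 3 and 0 counts in the Control rats, 0, 0 and 6 in the IDPN-3wk rats and 75, 175 and 226 in the IDPN-7wk rats, so no fold change is given. Its call was lost without any 1 of the Control or IDPN-7wk rats and with the set of libraries as a covariate, and that of Lgals3 without IDPN-7wk replicate 2. Of the proteins that fall in the plasma during the acute phase, 3 genes were tested. At 7 weeks 2 of them were called, or 66.7% against 5.13% of all genes, and 1 was not. Tf, transferrin, was called higher (2.11, SE 0.33, from 427 ± 25.4 to 1840 ± 376 CPM), and Rbp4, a retinol carrier, lower (-0.72, SE 0.13).

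Of the 3 lists of signalling genes upstream of the acute phase, none held a gene called lower at 7 weeks by edgeR or DESeq2. EdgeR called 3.13% of all genes lower, so 0 in lists of this size is near the share over all genes. Of 21 genes of IL-6 and IL-1 signalling, 5 were called, or 23.8% against 5.13% of all genes. They were Osmr, the oncostatin M receptor (2.32, SE 0.49), Socs3, the feedback inhibitor of STAT3 (2.10, SE 0.53), Cebpd, a C/EBP factor (1.44, SE 0.25), Stat3 (1.07, SE 0.16) and Tnfrsf1a, a TNF receptor (0.84, SE 0.13). Stat3 stood at 112, 102 and 89.8 CPM in the Control rats, 111, 142 and 133 CPM in the IDPN-3wk rats and 263, 187 and 191 CPM in the IDPN-7wk rats, with the 3-week rats between and overlapping control. Stat3, Cebpd and Tnfrsf1a were called under every alternative with a fold threshold, while Osmr lost its call without Control replicate 2 or 3 or IDPN-7wk replicate 1 or 2, and Socs3 without Control replicate 1 or 2, IDPN-3wk replicate 3 or any 1 of the IDPN-7wk rats, and with the set of libraries as a covariate. Il6st, the shared receptor subunit gp130, took the most counts of the list, at 164 ± 18.6, 191 ± 17.6 and 242 ± 29.1 CPM. Of 19 NF-kB genes, Bcl3, an atypical inhibitor (1.69, SE 0.38), and Icam1, an adhesion molecule and NF-kB target (1.41, SE 0.28), were called (10.5%), and Rela, the most counted, stood at 145 ± 3.46, 163 ± 26.1 and 173 ± 3.10 CPM. Of 15 genes of LPS recognition, Myd88, the adaptor of Toll-like receptors, was called (0.83, SE 0.16), or 6.67%, near the 5.13% over all genes. Tollip, the most counted of that list, was at 179 ± 18.8, 202 ± 10.2 and 206 ± 5.89 CPM. All 7-week rats lay above all control rats for 9 of the 21 IL-6 and IL-1 genes, 7 of the 19 NF-kB genes and 8 of the 15 LPS genes. The share over all genes was 17.2%. No gene of the 3 lists had all 7-week rats below control, against 17.1% of all genes. The list medians were 0.31, 0.21 and 0.33, against 0.01 over all genes tested. The call of Myd88 was lost without IDPN-7wk replicate 1 or 2, that of Bcl3 without Control replicate 1 or 3 or any 1 of the IDPN-7wk rats, and that of Icam1 without Control replicate 1 or 3 or IDPN-7wk replicate 1. At 3 weeks edgeR called none of these 3 lists, 5, 1 and 0 of their genes had an unadjusted p under 0.05, and DESeq2 called none.

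Of the 25 genes of iron, copper and haem handling, 1 was called higher and 3 lower at 7 weeks, or 16% against 5.13% of all genes, and 21 were not called. In this list 14 had a log2 fold change above 0, against 7936 of 15517 over all genes tested, 10 had all 7-week rats above all control rats and 5 had them below (17.2% and 17.1% of all genes), and DESeq2 called 7, of which 3 were higher. Heph, hephaestin, the membrane-bound ferroxidase related to ceruloplasmin, was called lower at 7 weeks (-0.97, SE 0.17), at 39.3 ± 1.48, 33.8 ± 4.90 and 20.0 ± 3.09 CPM. Lrp2, megalin, an endocytic receptor that takes up lipocalin 2, stood at 1178 ± 263, 622 ± 120 and 294 ± 64.4 CPM and was called lower at 7 weeks (adjusted p 0.000611 by edgeR). All 7-week rats were below all control rats for both genes. Hspa5, an endoplasmic reticulum chaperone that also binds alpha-2-macroglobulin at the cell surface, took the most counts of the receptor list, at 1906 ± 248, 1278 ± 102 and 1188 ± 74.2 CPM, and was called lower (-0.68, SE 0.11). Of the 9 genes of this receptor list, edgeR called 2 at 7 weeks, both lower, or 22.2% against 5.13% of all genes. DESeq2 also called 2, both lower. The metal gene called higher was Mt2A, a metallothionein (1.76, SE 0.30), and those called lower beside Heph were Mt3, the neural metallothionein (-1.63, SE 0.24), and Sod3, the extracellular superoxide dismutase (-0.60, SE 0.12). Fth1, the ferritin heavy chain, took the most counts, at 3087 ± 77.5, 3457 ± 114 and 3242 ± 275 CPM. Of 22 protease inhibitors and their targets, Spint1, an inhibitor of epithelial serine proteases, was called higher (0.64, SE 0.14), or 4.55% against 5.13% of all genes, and DESeq2 called 4, of which 2 were higher. Its relative Spint2, the most counted, stood at 1079 ± 48.6, 1160 ± 8.21 and 1140 ± 74.5 CPM. The call of Spint1 was lost without Control replicate 2 or 3, IDPN-7wk replicate 1 or 2, or the libraries with fewer detected genes, and that of Sod3 without Control replicate 3, IDPN-7wk replicate 1 or 3, or those libraries, and with their set as a covariate. Between 7 and 3 weeks, 2 of the 139 entries were called, Cfb and Lgals3bp, or 1.44% against 0.483% of all genes. At an unadjusted p under 0.05 there were 40, and DESeq2 called 14, of which 9 were higher.

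**Figure D4:**
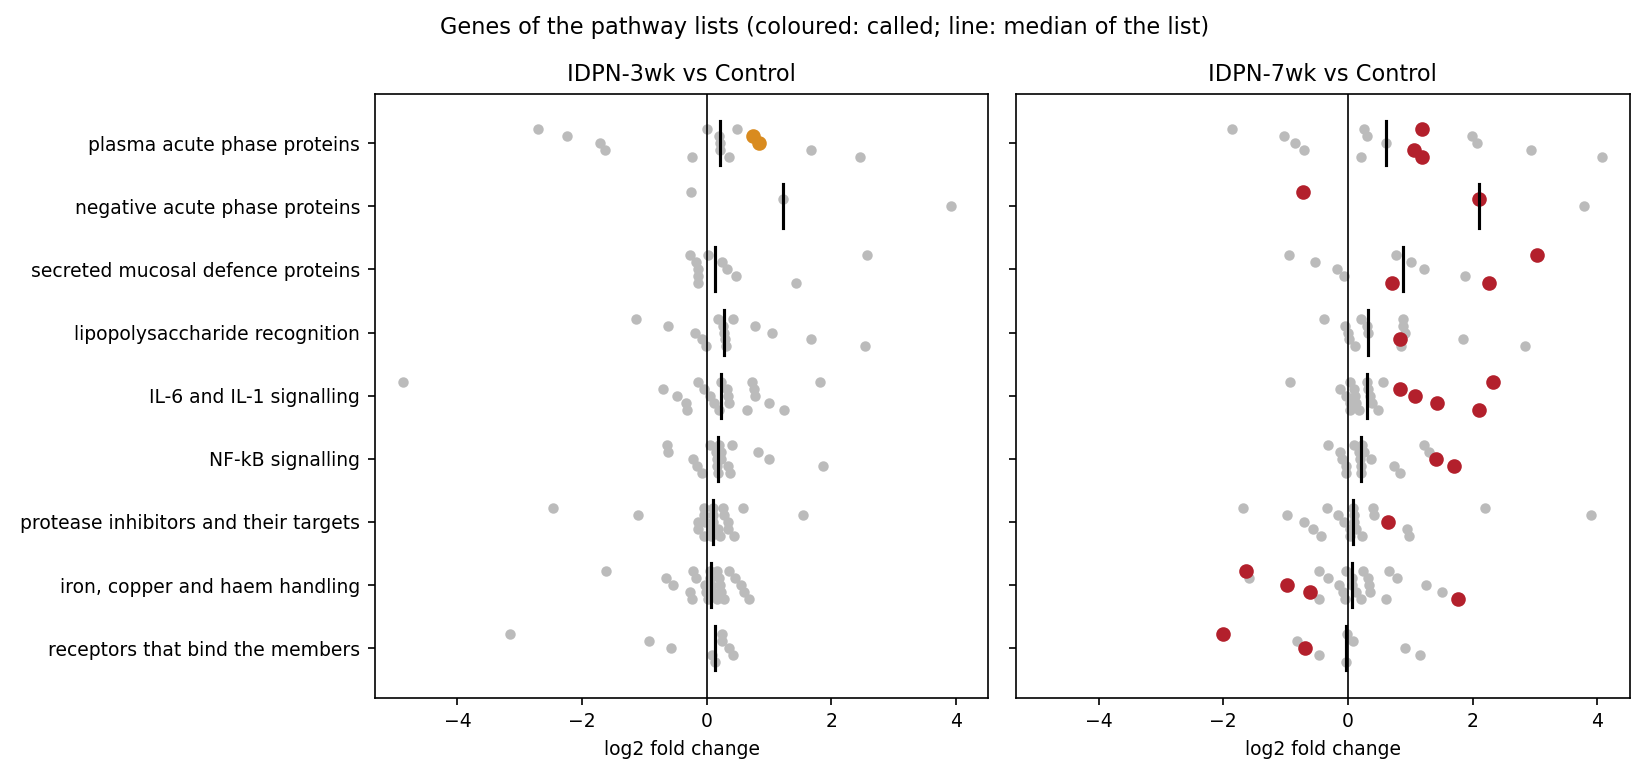
Log2 fold changes of the tested genes of each list in IDPN-3wk (left) and IDPN-7wk (right) against Control, on the same axis, with called genes coloured, other genes grey and a line at each list's median. Sftpd, with 3 counts in all control libraries, is not drawn. Of the genes tested in all lists together, 2 are called at 3 weeks, and 18 higher and 6 lower at 7 weeks.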

How the data were processed

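The deposited table holds estimated counts (expected counts) from RSEM 1.3.0 after alignment with STAR 2.5.3a, both named in the submitters' processing notes. The authors' values were rounded to whole numbers and not otherwise changed. The strand of the libraries is not stated, so genes overlapping on opposite strands are uncertain, and PCR reads without molecular identifiers are not independent molecules. Genes were matched by the table's symbols, ignoring case. Promoters and their coordinates are from RefSeq in build GRCr8. Calculations were made in R 4.3.3 with edgeR 4.0.16 and DESeq2 1.42.0 (limma 3.58.1). Genes kept by filterByExpr were normalised by TMM and tested by the robust quasi-likelihood test in 1 fit with a mean per group (6 residual degrees of freedom), with Benjamini-Hochberg adjustment over all genes tested. The lowest chi-square per gene between libraries of a group was 18.7, so none was a copy of another.

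The genes described, and the lists of other genes and markers, were chosen with earlier results of these data known. From each list, called genes are named, or the 4 with the largest change where more were called in 1 direction, and the gene of highest mean CPM. Tnfrsf1a falls outside this rule and was named after its values were seen. For each gene described, the 2 genes of most similar pattern are named. Listed symbols without an entry in the table were not analysed here. Alternatives were DESeq2, its size factors in edgeR, no filter, a minimum of 10 counts per library, only the groups compared, no threshold on fold change and each library left out. At 7 weeks, 2 of 7 dark cell and transitional markers, 1 of 8 fibroblast and 2 of 7 Schwann cell markers were called lower and 1 of 7 endothelial markers higher by edgeR. DESeq2 called 3, 1, 6 and 1 of these lists, and 4, 4, 6 and 1 had an unadjusted p under 0.05. All 7 Schwann cell markers had every 7-week rat below every control rat (17.1% of all genes), and their sum was 10459 ± 1361 CPM in control and 5613 ± 2039 CPM at 7 weeks. None of the 2 lymphocyte, 4 melanocyte and 3 erythrocyte markers tested was called at 7 weeks against control by edgeR or DESeq2, and 0, 1 and 0 had an unadjusted p under 0.05. Between the times edgeR called none of them (2, 1 and 1 at an unadjusted p under 0.05), and DESeq2 called 1 lymphocyte marker higher and 1 erythrocyte marker lower. At 7 weeks against control, edgeR called 0 of 3 hepatocyte markers tested (2 at an unadjusted p under 0.05, and 2 by DESeq2). In that comparison it called 0 of 4 neutrophil markers (0 and 0).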

Additional observations from a re-analysis of the deposited data

Results flagged for a closer look

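Several genes behaved differently at the 2 times of exposure. The Cfb entry with the most counts had a log2 fold change of 1.06 between the IDPN-7wk and IDPN-3wk rats. EdgeR called it in a direct test of the difference, and its 3-week rats overlapped control. The second Cfb entry was not called. Lgals3bp had a log2 fold change of 2.79 in the same test. The lists that hold Cfb and Lgals3bp were chosen with earlier results of these data known, so their calls are not independent tests. Lcn2 lay below control in every 3-week rat and above control in every 7-week rat, with a log2 fold change of 1.17 between the times. EdgeR's fit of all genes called this difference, but the levels of Lcn2 chose it, so the call is no independent test. The difference from control at 3 weeks was not called. Between the times, edgeR called 0 of 10 macrophage and monocyte markers and 0 of 7 Schwann cell markers, where 8 and 6 had an unadjusted p under 0.05. DESeq2 called 4 macrophage and monocyte markers, all higher, and 3 Schwann cell markers, all lower. The part of these cells in the differences between the times was not tested.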

How the results depend on the processing

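Counts below are given for 3 weeks against control, 7 weeks against control and 7 against 3 weeks. DESeq2 called 817, 1393 and 584 genes, of which 9 at 3 weeks and 14 between the times were in the lists, and 2 of the genes described at 3 weeks and 2 between the times. The cause was not tested. Between the times, 4 list genes and 2 of the genes described were called with no filter, and 123 genes, 6 list genes and 2 of those described with at least 10 counts in all libraries, where fewer genes are tested. With only the groups compared in the fit, which leaves fewer samples, 118, 1249 and 46 genes were called, and 0 list genes at 3 weeks. The libraries with fewer detected genes were named in the plan by another replicate order, so the real set, Control replicate 3 and IDPN-3wk replicates 1 and 2, was used in its place, chosen after seeing the data. With it as a covariate 37 genes were called between the times. Without it 1563 genes and 38 list genes were called at 7 weeks and 0 of those described between the times, and the cause was not tested. Leaving out each library in turn gave 75 to 439, 432 to 969 and 39 to 445 genes, 0 to 4, 16 to 29 and 2 to 6 list genes, and 1, 2 to 5 and 0 to 2 of those described. Over the alternatives, 399 values of called list genes kept their call, 48 lost it, and none changed sign. Of the values of the genes described, 324 moved by less than the spread between rats and 12 by more.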
